A study of Mus musculus with 6 samples.

Results

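Hic-5 and the genes around it were followed as 10 genes, namely Tgfb1i1, which encodes Hic-5, its paralogs Pxn (paxillin) and Lpxn (leupaxin), and 7 genes for proteins that bind this family or act beside it at focal adhesions, Ptk2, Ptk2b, Bcar1, Ptpn12, Vcl, Git1 and Git2. They were chosen by name and are 10 of the 48368 gene symbols in the count tables. All 10 passed the filter on low counts, which left 17584 genes to test. The 6 RNA libraries came from cancer-associated fibroblasts (CAFs), cells of the tumour stroma that were separated from digested mammary tumours of MMTV-PyMT mice by differential centrifugation and then cultured. In these mice the mouse mammary tumour virus promoter drives polyomavirus middle T antigen, an oncogene, in mammary epithelium. The libraries labelled knockout (KO, 3 libraries) came from tumours of Hic-5-/- mice, and the libraries labelled heterozygous (HET, 3 libraries) from tumours of Hic-5+/- mice, so the controls also carry 1 targeted allele, and no wild-type group is analysed here. Total RNA was made into stranded libraries after depletion of ribosomal RNA. The series text speaks of technical triplicates. In the titles, KO replicate 3 and HET replicate 3 share a number and the other libraries each have their own. Separate animals are not stated, and p-values therefore cover library-to-library spread, which may be technical. The labels used here give no age and no details of the targeted allele.

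Focal adhesions join integrins in the cell membrane to the actin cytoskeleton. Paxillin, Hic-5 and leupaxin are scaffolds with short leucine-rich LD motifs in the N-terminal part, which bind FAK, vinculin and the GIT proteins, and LIM zinc-finger domains in the C-terminal part, which bind the phosphatase PTP-PEST and target the protein to adhesions. Hic-5 is abundant in smooth muscle and activated fibroblasts and is induced by TGF-beta, paxillin is present in nearly all cells, and leupaxin is mainly a leukocyte protein.

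Libraries differed in more than the label. Between 24954273 and 42470598 estimated counts fell in a library. Levels are given as CPM, a gene's counts relative to a library total set equal for all libraries, after TMM, a scaling that lines up the bulk of genes between libraries. The summed CPM of 10 fibroblast markers was 728 to 3477 in libraries labelled KO and 4511 to 14130 in libraries labelled HET, with the lowest sum in KO replicate 2. Single markers did not all follow the sum. Col1a1, a collagen I chain, stood at 411, 2.56 and 274 CPM in KO replicates 1 to 3 and 4948, 1218 and 525 CPM in HET replicates 1 to 3, whereas Dcn, Pdgfra and Thy1 overlapped between the labels. Dcn, decorin, stood at 369.8, 0.775 and 136 CPM in KO replicates 1 to 3 and 55.1, 59.7 and 356 CPM in HET replicates 1 to 3. In KO replicate 2 Col1a2, the other collagen I chain, stood at 0.491 CPM against 577 to 5109 CPM in the other 5 libraries. In the same library the mesenchymal receptor genes Pdgfrb and Pdgfra stood at 138 and 124 CPM, and Postn, another of the fibroblast markers, at 440 CPM. Postn was at 13.3 and 83.4 CPM in KO replicates 1 and 3 and at 1307, 406 and 53.8 CPM in HET replicates 1 to 3. The sum of 10 epithelial markers was highest in KO replicate 2, at 88.3 CPM, against 28.4 and 28.5 CPM in KO replicates 1 and 3 and 17.9 to 65.8 CPM in HET libraries. Outside KO replicate 2 most of the sum was Krt19, at 27.2 and 17.8 CPM in KO replicates 1 and 3 and 12.97 to 64.1 CPM in HET, but 0.542 CPM in KO replicate 2. Krt18, Cdh1, Krt8 and Epcam stood at 37.9, 14.6, 13.7 and 5.66 CPM in KO replicate 2, and each was at most 2.93 CPM in every other library. All 10 markers were above 3 counts in KO replicate 2, as in KO replicate 3 and HET replicate 2. Summed endothelial markers (7 genes) were at 1.37 to 13.1 CPM in KO and 2.80 to 7.25 CPM in HET, and summed pericyte and smooth muscle markers (8 genes) at 38.1 to 77.5 CPM in KO and 51.8 to 347 CPM in HET. Leukocyte markers (10 genes) were high in a library of each label, with 8 of 10 above 3 counts and a sum of 1133 CPM in KO replicate 3 and 1431 CPM in HET replicate 2. In the others 3 or 4 were above 3 counts, and the sum was 12.6 and 7.52 CPM in KO replicates 1 and 2, and 24.7 and 39.6 CPM in HET replicates 1 and 3. Ptprc, the pan-leukocyte gene, was at 0 in KO replicate 2 and HET replicate 1. The T cell gene Cd3e was at 0 in both leukocyte-marked libraries. The part of other cells in the results below was not tested beyond the values without these libraries.

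Promoter sequence from RefSeq (GRCm38.p6) is shown for the 3 genes whose labels were separated in these libraries (Vcl, Git1 and Bcar1), and for the low paralog Lpxn, on the gene's own strand. Each window runs from 250 bases before to 50 bases after a RefSeq transcript start, and of several the one nearest the GENCODE start was taken. The 2 starts are the same base for Vcl and Lpxn and differ for Git1 and Bcar1. Windows were given for 5 of the 10 genes. Capitals mark a CArG box, the site of serum response factor, which drives many cytoskeletal genes, or GGAATG, the core of the TEAD motif, searched on both strands. The windows are chr14:20929148-20929447 on the plus strand for Vcl, chr11:77493162-77493461 on the plus strand for Git1, chr8:111743800-111744099 on the minus strand for Bcar1 and chr19:12795943-12796242 on the plus strand for Lpxn.
Vcl: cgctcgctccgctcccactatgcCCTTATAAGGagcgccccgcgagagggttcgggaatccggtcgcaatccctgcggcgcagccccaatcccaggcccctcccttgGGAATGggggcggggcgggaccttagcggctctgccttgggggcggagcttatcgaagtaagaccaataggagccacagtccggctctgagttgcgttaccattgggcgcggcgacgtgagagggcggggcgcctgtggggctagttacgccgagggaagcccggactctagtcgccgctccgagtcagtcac
Git1: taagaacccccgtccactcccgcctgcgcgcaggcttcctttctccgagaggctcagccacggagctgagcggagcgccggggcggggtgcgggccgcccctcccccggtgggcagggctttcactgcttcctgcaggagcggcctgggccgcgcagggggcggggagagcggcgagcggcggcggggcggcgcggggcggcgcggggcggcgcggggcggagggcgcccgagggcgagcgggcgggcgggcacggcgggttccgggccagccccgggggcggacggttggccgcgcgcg
Bcar1: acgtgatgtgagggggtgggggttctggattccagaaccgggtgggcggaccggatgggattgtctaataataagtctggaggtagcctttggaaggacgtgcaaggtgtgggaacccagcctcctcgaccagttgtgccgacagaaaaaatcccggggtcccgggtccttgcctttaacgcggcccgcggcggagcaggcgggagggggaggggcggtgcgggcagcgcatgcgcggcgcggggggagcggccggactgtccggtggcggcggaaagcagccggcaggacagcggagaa
Lpxn: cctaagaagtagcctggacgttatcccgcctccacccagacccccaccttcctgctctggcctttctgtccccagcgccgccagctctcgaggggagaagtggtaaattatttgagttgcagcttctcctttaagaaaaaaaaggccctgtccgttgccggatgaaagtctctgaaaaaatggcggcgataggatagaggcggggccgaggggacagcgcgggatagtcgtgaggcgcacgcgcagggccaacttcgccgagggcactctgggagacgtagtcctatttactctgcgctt
The Vcl window held 1 CArG box, beginning 227 bases before the start, and 1 GGAATG, beginning 143 bases before it. Neither motif was found in the other 3 windows. Of 32851 promoter windows of the same length, 1.6% held a CArG box and 14.7% held GGAATG. All 4 windows were rich in CpG, with 30 in Vcl, 48 in Git1, 29 in Bcar1 and 21 in Lpxn, against a median of 7 over all windows.

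Tgfb1i1, the targeted gene (chromosome 7, 128246812 to 128255699, plus strand, GRCm38), had 3975, 9 and 3937 estimated counts in KO replicates 1 to 3 and 6286, 12239 and 3183 in HET replicates 1 to 3. These were 90.4, 0.232 and 156 CPM in KO and 223, 348 and 125 CPM in HET. The gene was nearly absent from KO replicate 2 (95% exact Poisson interval 0.106 to 0.441 CPM, counting error only), and KO replicate 3 stood above HET replicate 3. The labels did not separate the gene they name. KO and HET below are therefore names of labels, and every direction is between labels rather than between cells lacking and cells having this transcript. A count per gene cannot show which exons the reads came from, or whether a mutant allele gave them. The log2 fold change was -1.50 ± 1.54 (SE), with a 95% interval from -5.21 to 2.21 and the edgeR quasi-likelihood test, adjusted by Benjamini-Hochberg over all tested genes, gave an adjusted p of 0.756. Without KO replicate 2 it was -0.92 ± 0.52 (adjusted p = 0.950).

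**Figure D1:**
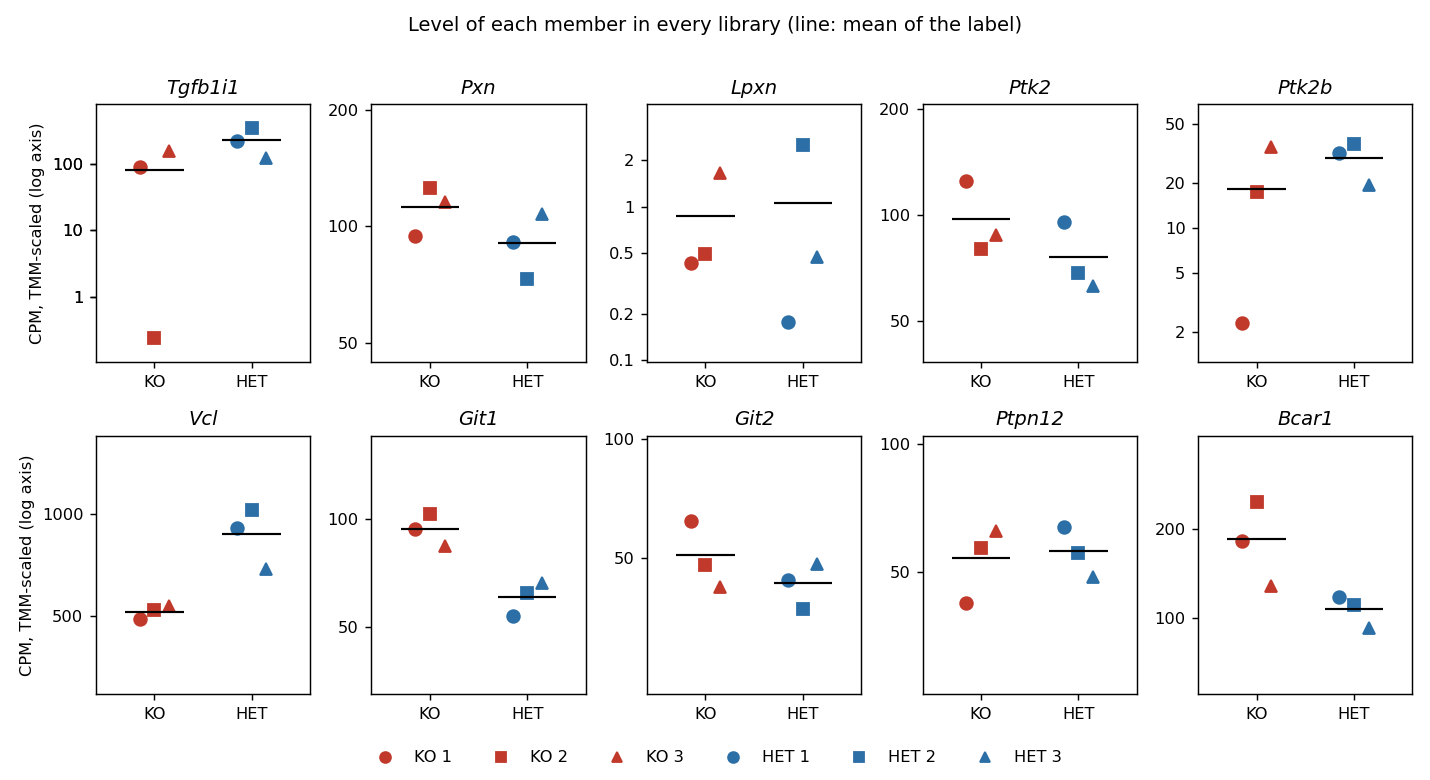
Level of each of the 10 genes in every library, as TMM-scaled CPM on a log axis, with KO left of HET, 1 point per library and a line at the mean of the label. Only for Vcl, Git1 and Bcar1 do the points of KO and HET not overlap, and Tgfb1i1 is near absent only in KO replicate 2.

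Paxillin transcript, Pxn (chromosome 5, 115506676 to 115555987, plus strand), was present at similar level in all libraries. It stood at 94.7, 126 and 115.5 CPM in KO replicates 1 to 3 and at 91.0, 73.2 and 108 CPM in HET replicates 1 to 3. The labels overlapped, since KO replicate 1 lay below HET replicate 3. Means were 112 ± 15.8 CPM in KO and 90.7 ± 17.3 CPM in HET (SD, n = 3 each), a log2 fold change of 0.30 ± 0.22 (SE; 95% interval -0.24 to 0.84; edgeR adjusted p = 0.676).

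Leupaxin transcript, Lpxn (chromosome 19, 12796193 to 12833807, plus strand), was rare. It had 19, 19 and 42 counts in KO replicates 1 to 3 and 5, 89 and 12 counts in HET replicates 1 to 3, or 0.432, 0.491 and 1.67 CPM in KO and 0.177, 2.53 and 0.471 CPM in HET. The highest levels were those of KO replicate 3 and HET replicate 2, the libraries with high leukocyte markers, and their 95% Poisson intervals (1.2 to 2.25 CPM in KO replicate 3 and 2.03 to 3.11 CPM in HET replicate 2) lay above those of the other 4 libraries. Between the labels the log2 fold change was -0.32 ± 1.05 (SE; 95% interval -2.86 to 2.22; edgeR adjusted p = 0.929). It was 0.50 without both leukocyte-marked libraries, an alternative chosen after seeing the data, and 1.40 without HET replicate 2 alone. Ptprc, the defining leukocyte gene, was at or near 0 in the 4 libraries with the low Lpxn levels, at most 0.0455 CPM.

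Paralog levels were read against Tgfb1i1 library by library, from the lowest Tgfb1i1 level to the highest. The order was KO replicate 2, KO replicate 1, HET replicate 3, KO replicate 3, HET replicate 1 and HET replicate 2. Along it Pxn stood at 126, 94.7, 108, 115.5, 91.0 and 73.2 CPM, highest where Tgfb1i1 was lowest and lowest where it was highest, but not in strict order between. Pxn in KO replicate 2 was 1.09 times the next highest library, and its whole range over the 6 libraries was 1.72-fold, against 1497-fold for Tgfb1i1. Lpxn stood along the same order at 0.491, 0.432, 0.471, 1.67, 0.177 and 2.53 CPM, with KO replicate 2 close to KO replicate 1 and HET replicate 3. No correlation with Tgfb1i1 is given, since over 6 libraries KO replicate 2 lies alone at the low end, and the other 5 libraries were held to be too few. Among those 5 libraries Pxn was still lowest in HET replicates 1 and 2, where Tgfb1i1 was highest. It was highest in KO replicate 3 (115.5 CPM) rather than in KO replicate 1 (94.7 CPM), where Tgfb1i1 was lowest of the 5.

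Per length, the sum of the paxillin family followed the order of Tgfb1i1 across the 6 libraries. Levels per length are CPM divided by the kb of annotated exons (GENCODE M21 basic set). The sources used here do not say whether intronic reads were counted. If they were, levels per exon length are too high for genes with long introns, such as Pxn (span 49312 bases, exons 4765) beside Tgfb1i1 (span 8888, exons 5072), and the shares below would change. In the authors' deposited RPKM, which scales by gene span, Tgfb1i1 and Pxn stood at 14.4 and 1.92 in KO replicate 3. The summed level of Tgfb1i1, Pxn and Lpxn was 37.9, 26.7 and 55.9 in KO replicates 1 to 3, and HET replicates 1 to 3 had sums of 63.1, 85.4 and 47.5. Tgfb1i1 made up 47.0%, 0.172% and 55.0% of that sum in KO replicates 1 to 3, and 69.6%, 80.3% and 51.8% in HET replicates 1 to 3. Pxn per length was 19.9, 26.4 and 24.2 in KO and 19.1, 15.4 and 22.6 in HET. In KO replicate 2, then, the level of Pxn was at its highest and the family sum at its lowest of the 6 libraries. The sum is largely set by Tgfb1i1 itself and was given no test. In bulk RNA, fewer cells that express a gene and less RNA per cell cannot be told apart.

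**Figure D2:**
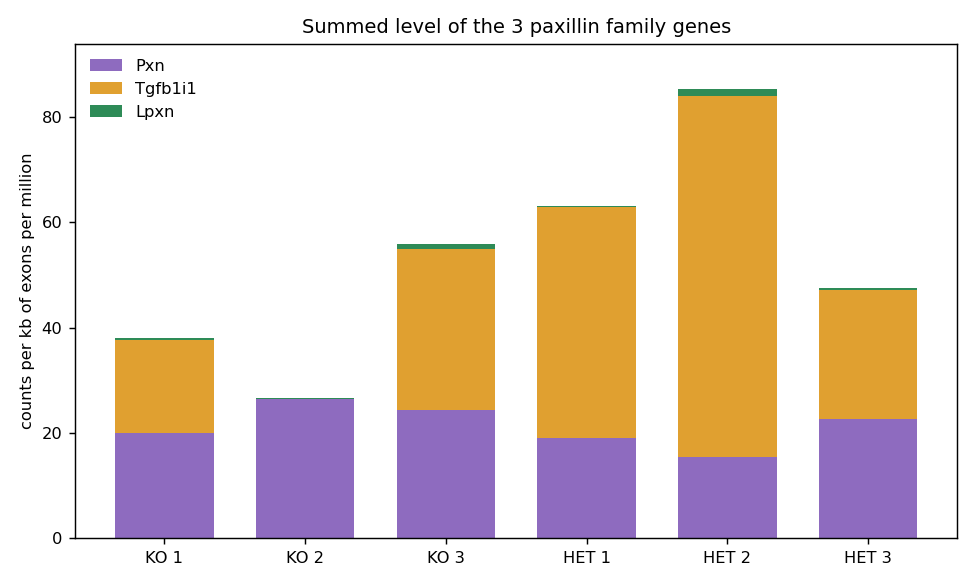
Summed level of the 3 paxillin family genes in each library, in CPM per kb of exons, with bars from 0 stacked by gene and KO left of HET. The Pxn part stays between 15.4 and 26.4, the Tgfb1i1 part runs from 0.0458 to 68.6, and Lpxn is at most 1.41.

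Ptk2 encodes FAK, the tyrosine kinase that binds paxillin family LD motifs and is activated at adhesions (chromosome 15, 73205102 to 73423280, minus strand). It stood at 125, 80.2 and 87.5 CPM in KO replicates 1 to 3 and at 95.7, 68.4 and 62.9 CPM in HET replicates 1 to 3, with overlap. The log2 fold change was 0.36 ± 0.27 (SE; 95% interval -0.28 to 1.00; edgeR adjusted p = 0.674). Ptk2b encodes PYK2, the FAK relative of neurons and blood cells that responds to calcium (chromosome 14, 66153257 to 66281052, minus strand). It stood at 2.30, 17.4 and 34.97 CPM in KO replicates 1 to 3 and at 32.0, 36.6 and 19.4 CPM in HET replicates 1 to 3. KO replicate 1 was far below all others, and the range over the 6 libraries was 15.9-fold, against 1.98-fold for Ptk2. In that library Ptk2 was at its highest, and per length Ptk2b made up 2.31% of the summed Ptk2 and Ptk2b level, against 21.8% and 33.9% in KO replicates 2 and 3 and 28.3% to 40.7% in HET. Between the labels the log2 fold change of Ptk2b was -0.69 ± 0.85 (SE; 95% interval -2.74 to 1.36; edgeR adjusted p = 0.801), and it was -0.18 without KO replicate 1, -1.58 without KO replicate 3 and -1.42 without both leukocyte-marked libraries. Ptk2b was highest in the 2 leukocyte-marked libraries, and HET replicate 1 stood close to them at 32.0 CPM. The leukocyte markers of HET replicate 1 were mixed. Ptprc was at 0 and Lyz2 at 3.08 CPM, against 1037 and 1257 CPM of Lyz2 in KO replicate 3 and HET replicate 2. Csf1r was at 20.8 CPM, against 24.3 and 43.6 CPM in those libraries. A leukocyte source of Ptk2b was not tested.

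**Figure D3:**
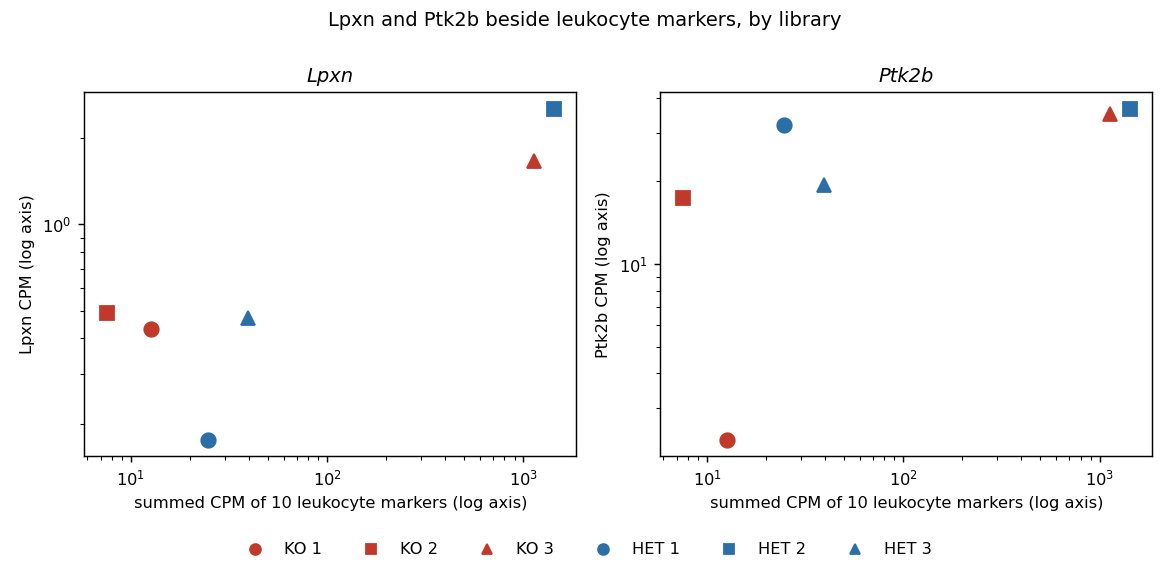
Lpxn (left) and Ptk2b (right) in CPM against the summed CPM of 10 leukocyte markers, 1 point per library, on log axes. KO replicate 3 and HET replicate 2 stand to the right in both panels, at 1133 and 1431 CPM of markers, mostly Lyz2 (1037 and 1257 CPM). These libraries are the highest for both genes, while Ptk2b is also high in HET replicate 1.

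Bcar1 encodes p130Cas, the adaptor that FAK and Src phosphorylate and that recruits Crk (chromosome 8, 111710474 to 111743809, minus strand). It stood at 182, 248 and 128 CPM in KO replicates 1 to 3, against 117, 111 and 92.6 CPM in HET replicates 1 to 3. Every KO library lay above every HET library, and KO replicate 2 lay highest. The log2 fold change was 0.80 ± 0.29 (SE; 95% interval 0.11 to 1.49), with an unadjusted p of 0.0292 and an adjusted p of 0.579 in edgeR. Without KO replicate 2 it was 0.54 ± 0.26 (unadjusted p = 0.0880 in edgeR). Ptpn12 encodes PTP-PEST, the phosphatase that acts on p130Cas and binds the LIM domains of paxillin and Hic-5 (chromosome 5, 20986645 to 21055911, minus strand). It stood at 42.3, 56.9 and 62.6 CPM in KO and 64.0, 55.5 and 48.7 CPM in HET, with full overlap and a log2 fold change of -0.057 ± 0.22 (SE; 95% interval -0.59 to 0.48; edgeR adjusted p = 0.941). Its sign turned to 0.091 with library size alone as the scaling.

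Vcl encodes vinculin, which links talin and paxillin to actin and strengthens adhesions under load (chromosome 14, 20929398 to 21033676, plus strand; its promoter is the window with the CArG box above). It stood at 490, 524 and 535 CPM in KO replicates 1 to 3, against 912, 1028 and 688 CPM in HET replicates 1 to 3. All KO libraries lay below all HET libraries. The KO libraries were close together, and their Tgfb1i1 levels ran from 0.232 to 156 CPM. In HET replicates 3, 1 and 2, with Tgfb1i1 at 125, 223 and 348 CPM, Vcl rose in the same order. A relation of Vcl to Tgfb1i1 was not tested. Means were 516 ± 23.4 CPM in KO and 876 ± 173 CPM in HET (SD, n = 3 each). On the log2 scale the labels differed by -0.76 ± 0.25 (SE; 95% interval -1.37 to -0.16), with an unadjusted p of 0.0215 and an adjusted p of 0.579 in edgeR. Without KO replicate 2 the fold change was -0.78 ± 0.31 (unadjusted p = 0.0497 in edgeR). Over 2090 bases Vcl overlaps Ap3m1 on the other strand, which is 25.5% of the 8191 bases of Vcl exons in the full GENCODE M21 set. The strand setting of the counting was not given in the sources used here. Ap3m1 stood at 112, 87.7 and 159 CPM in KO and 131, 157 and 155 CPM in HET.

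Git1 and Git2 encode ARF GTPase-activating scaffolds that bind paxillin family LD motifs and bring PIX and PAK to adhesions. Git1 (chromosome 11, 77493562 to 77507786, plus strand) stood at 94.2, 104 and 84.2 CPM in KO replicates 1 to 3, against 53.6, 62.0 and 66.4 CPM in HET replicates 1 to 3. Every KO library lay above every HET library. The means were 94.0 ± 9.71 CPM in KO and 60.7 ± 6.51 CPM in HET (SD, n = 3 each), and the fitted log2 difference was 0.63 ± 0.18 (SE; 95% interval 0.19 to 1.07), with an unadjusted p of 0.0122 and an adjusted p of 0.579 in edgeR. Without KO replicate 2 the fold change was 0.55 ± 0.20 (unadjusted p = 0.0386 in edgeR). Git2 (chromosome 5, 114727407 to 114775517, minus strand) stood at 61.9, 47.9 and 42.1 CPM in KO and 43.8, 37.1 and 48.2 CPM in HET, with overlap and a log2 fold change of 0.23 ± 0.22 (SE; 95% interval -0.30 to 0.77; edgeR adjusted p = 0.738). Per length, Git1 made up 69.2% to 76.2% of the summed Git1 and Git2 level in KO and 64.4% to 71.2% in HET, which overlap.

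None of the 10 genes passed the adjusted threshold of 0.05 in edgeR, where 0% of the 17584 tested genes did, and the smallest adjusted p of any gene was 0.579. DESeq2 called none of the 10 (adjusted p from 0.1001 for Vcl upward), where it called 1.53% of the 15707 genes it gave an adjusted p, 0.452% higher and 1.08% lower in KO. At an unadjusted p under 0.05 there were 2 higher in KO, Git1 and Bcar1, where 4.3% of all tested genes were, and 1 lower, Vcl, where 4.29% were (8.59% in either direction). The same 3 were the ones whose labels did not overlap, where 8.1% of tested genes lay wholly higher in KO and 7.42% wholly lower (15.5% in all). Without KO replicate 2 there were 2, Git1 and Vcl, where 5.09% of tested genes were at an unadjusted p under 0.05. Leaving out each library in turn left 1 or 2 members at an unadjusted p under 0.05. Git1 was among them each time, with p from 0.0152 to 0.0394. Vcl was among them without KO replicate 2 or HET replicate 3, and Bcar1 without KO replicate 3. Over all genes tested in these fits, those at an unadjusted p under 0.05 numbered 1704, 917 and 2281 without KO replicates 1 to 3. They numbered 1597, 648 and 1085 without HET replicates 1 to 3.

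**Figure D4:**
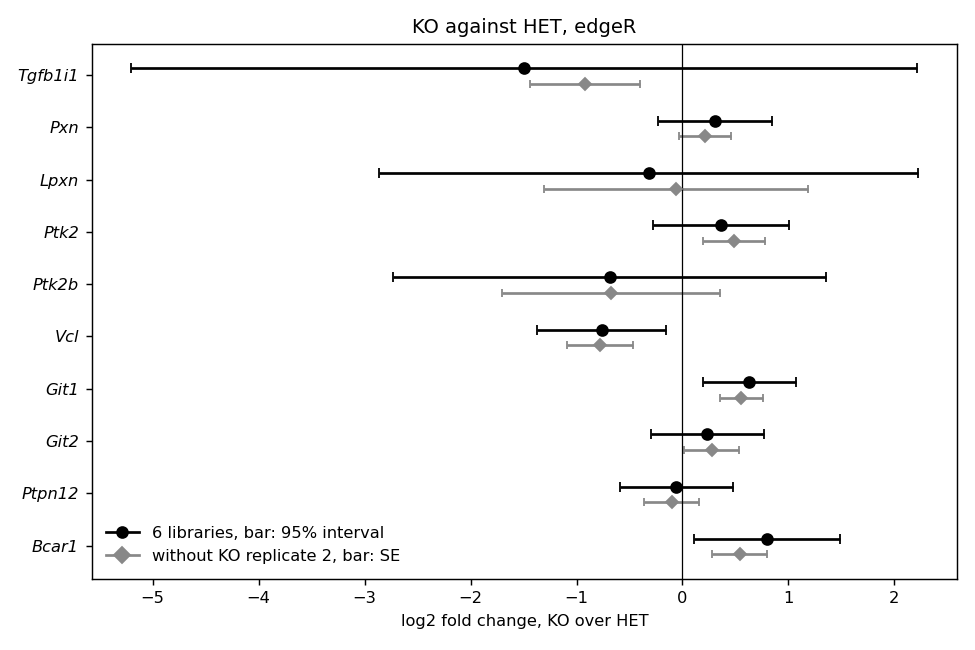
Log2 fold change, KO over HET, for each of the 10 genes, from edgeR on all 6 libraries (black, bars are 95% intervals) and without KO replicate 2 (grey, bars are SE). Tgfb1i1, Lpxn and Ptk2b have the widest intervals, and those of Vcl (-1.37 to -0.16), Git1 (0.19 to 1.07) and Bcar1 (0.11 to 1.49) do not reach 0 before adjustment over all genes.

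In the pair that shares a title number, Tgfb1i1 was 1.25 times as high in KO replicate 3 as in HET replicate 3, opposite to its label means. In that pair Bcar1 was 1.39 times, Git1 1.27 times and Vcl 0.777 times its HET level. Any pair must give these sides, since the labels of these genes did not overlap. Pxn (1.07 times) and Ptk2 (1.39 times) were also on the side of their label means. Lpxn (3.54 times), Ptk2b (1.80 times), Ptpn12 (1.285 times) and Git2 (0.872 times) were on the other side. A pair has no replicate check.

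The 10 genes differed widely in level per length. Vcl was highest, at 93.0 to 101 in KO and 131 to 195 in HET (CPM per kb of exons), and did not overlap the next gene. Bcar1 followed at 39.6 to 76.4 in KO and 28.6 to 36.2 in HET. By their means over the 6 libraries Tgfb1i1 (31.0), Git1 (22.02), Pxn (21.3), Ptpn12 (16.8) and Ptk2 (16.8) came next, with ranges that overlapped from 1 gene to the next. Git2 (9.01) lay wholly below Ptk2, with 8.09 to 11.9 in KO and 7.13 to 9.28 in HET. Ptk2b (5.89) overlapped Git2, and Lpxn (0.537) was the lowest. The authors' deposited RPKM gave another order, with Tgfb1i1 first at a mean of 13.9 and Vcl at 5.37. The length implied by the deposited RPKM was 1.22 times the whole span of the gene, introns included, for Tgfb1i1 (span 8888 bases, exons 5072) and for Vcl (span 104279, exons 5267) alike. Scaling by span lowers genes with long introns where reads come from exons, and scaling by exons raises them where intronic reads were counted. The order per exon length therefore holds only for exonic counts. It and the shares per length above also depend on the exon set. In the full GENCODE M21 set the exons of Git2 cover 17362 bases, against 5197 in the basic set, and those of Ptk2 11803 against 5166.

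By the smallest root mean square difference between log2(CPM + 0.1) profiles centred on their own mean, over 6 libraries and 9298 other genes, the genes most like Tgfb1i1 were Tfpi, Slc2a10, Ddr2, Nova1 and Ppp1r3b (differences of 0.52 to 0.62). All 5 were at 2.30 CPM or less in KO replicate 2, where Tfpi stood at 0.103 CPM, against 110 and 182 CPM in KO replicates 1 and 3 and 177 to 211 CPM in HET. Over the 5 libraries other than KO replicate 2 they were Nuak1, Fkbp14, Tspan17, Tagln and Usp53 (0.11 to 0.17). Tagln stood at 1198 and 2405 CPM in KO replicates 1 and 3 and at 2902, 3767 and 1517 CPM in HET replicates 1 to 3, with 33.9 CPM in KO replicate 2. Nuak1 stood at 59.2 and 98.4 CPM in KO replicates 1 and 3 and at 132, 224 and 66.5 CPM in HET replicates 1 to 3, but at 104 CPM in KO replicate 2. Lpxn was below the mean of 10 CPM and was not compared. Of the other genes described above, Vcl came nearest over the 5 libraries other than KO replicate 2. There it was at place 151 of 9298, with a difference of 0.36. Over all 6 libraries Vcl was at place 2029, with a difference of 3.21, and it stood at 524 CPM in KO replicate 2. Likeness over 5 or 6 points is a description and was given no test.

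Around these genes, further parts of the adhesion machinery were read from lists chosen by role. No gene of any list passed the adjusted threshold in edgeR or DESeq2. Of 30 signalling partners of FAK and paxillin, all tested, 15 were higher and 15 lower in KO, with a median log2 fold change of 0.015, against 0.011 over all tested genes, and 2 were at an unadjusted p under 0.05, both higher, where 4.3% of all tested genes were higher at that p and 8.59% in either direction. Pak1, a kinase that GIT and PIX bring to adhesions, stood at 53.8, 57.6 and 98.3 CPM in KO and 43.7, 34.9 and 34.7 CPM in HET. Abl2, the kinase Arg, which acts on actin at adhesions, stood at 98.8, 96.5 and 156.5 CPM in KO and 63.9, 59.9 and 78.5 CPM in HET. The labels of both did not overlap, where 8.1% of all tested genes lay wholly higher in KO. Log2 fold changes were 0.89 ± 0.29 for Pak1 and 0.80 ± 0.26 for Abl2 (SE; edgeR adjusted p = 0.579 for each). Its relative Abl1 (0.54 ± 0.26) and Src (0.39 ± 0.21) overlapped between the labels (edgeR adjusted p = 0.592 and 0.609).

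Relatives of the partners numbered 7, of which 5 were tested, 4 higher and 1 lower in KO, with a median of 0.31, and none was at an unadjusted p under 0.05. The edgeR adjusted p was 0.592 for Efs, 0.726 for Ptpn22, 0.781 for Ctnnal1 and 0.867 for Ctnna1. Efs, of the p130Cas family, stood at 0.591, 0 and 3.09 CPM in KO replicates 1 to 3 and at 0.673, 20.2 and 29.5 CPM in HET replicates 1 to 3, so HET replicate 1 lay among the KO libraries. Ptpn22, a PEST phosphatase of leukocytes, was highest in the leukocyte-marked KO replicate 3, at 2.34 CPM. In HET replicate 2, the other leukocyte-marked library, it was at only 0.427 CPM, close to the 0.353 CPM of HET replicate 3. Ctnnal1, a relative of vinculin and alpha-catenin, stood at 12.99, 66.4 and 5.55 CPM in KO and 7.16, 15.8 and 24.9 CPM in HET. Ctnna1, alpha-catenin itself, was even, at 462 to 536 CPM in KO and 438 to 499 CPM in HET. With KO replicate 2 left out the median of this list was -0.55, and with KO replicate 3 left out -0.37. It was 0.096, 0.12 and 0.090 without KO replicate 1, HET replicate 1 and HET replicate 3, and 0.82 without HET replicate 2.

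The other focal adhesion adaptors had 10 of 27 tested members higher and 17 lower in KO, with a median of -0.41, and 4 at an unadjusted p under 0.05, all lower, where 4.29% of all tested genes were lower at that p and 7.42% lay wholly lower in KO. Tns2, tensin 2, stood at 39.3, 22.2 and 33.9 CPM in KO and 113, 68.0 and 52.4 CPM in HET (log2 fold change -1.29 ± 0.37). Palld, palladin, an actin crosslinker, stood at 417, 353 and 505 CPM in KO and 644, 1045 and 654 CPM in HET (-0.88 ± 0.30). Rsu1, which binds PINCH in the complex of integrin-linked kinase, stood at 107, 100.2 and 118 CPM in KO and 185, 170 and 133 CPM in HET (-0.59 ± 0.21). These 3 did not overlap between the labels, nor did Parva, parvin alpha, named here after its values were seen. Lims2, the PINCH2 adaptor, stood at 3.80, 4.06 and 17.1 CPM in KO and 41.4, 77.5 and 11.1 CPM in HET (-2.38 ± 0.90), with overlap. The edgeR adjusted p was 0.579 for each of the 4 (± SE). The median of this list ran from -0.62 (KO replicate 3 left out) to -0.15 (HET replicate 2 left out) and was -0.21 without HET replicate 1. It was -0.78 without the pair that shares a title number, -0.11 on log2(RPKM + 0.1) and -0.038 on log2(RPKM + 1).

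Other LIM-domain proteins of actin and adhesions had 9 of 26 tested members higher and 17 lower in KO, with a median of -0.29, and at an unadjusted p under 0.05 were 2 higher and 2 lower, where 4.3% and 4.29% of all tested genes were, and 7.42% lay wholly lower in KO. Pdlim2 stood at 128, 81.6 and 75.6 CPM in KO and 182, 160 and 199 CPM in HET (log2 fold change -0.92 ± 0.27). Csrp1, a cysteine-rich LIM protein of smooth muscle and fibroblasts, stood at 366, 405 and 304 CPM in KO and 949, 1151 and 446 CPM in HET (-1.24 ± 0.39). Both were separated by label, as was Lima1, named here after its values were seen. Ajuba stood at 108, 134 and 66.5 CPM in KO and 68.6, 48.3 and 54.8 CPM in HET (0.85 ± 0.30), with KO replicate 3 below HET replicate 1. Lmo7 stood at 57.5, 64.9 and 3.85 CPM in KO and 9.28, 7.65 and 10.5 CPM in HET (2.20 ± 0.91), so KO replicate 3 was the lowest of all 6. The edgeR adjusted p was 0.579 for Pdlim2, Csrp1 and Ajuba and 0.581 for Lmo7 (± SE). The median of this list was -0.18 without KO replicate 2, -0.51 without KO replicate 3 and -0.072 without HET replicate 2. It was -0.67 without the pair that shares a title number, -0.14 on log2(RPKM + 0.1) and -0.085 on log2(RPKM + 1).

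**Figure D5:**
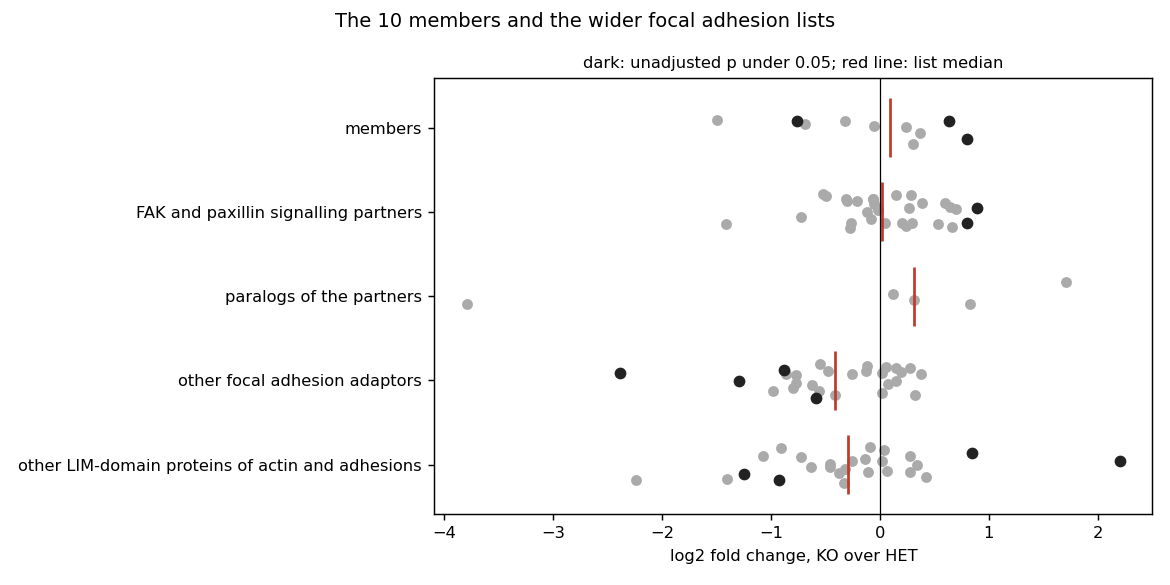
Log2 fold change, KO over HET, of each tested gene of the 10 members and of 4 wider focal adhesion lists, with 1 point per gene, dark points at an unadjusted p under 0.05 and a red line at the list median. The medians are 0.015 for signalling partners, 0.31 for paralogs of the partners, -0.41 for focal adhesion adaptors and -0.29 for LIM-domain proteins.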

How the data were processed

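RNA was measured in 6 libraries, grouped by the genotype label. For each gene symbol the authors deposited its estimated count, not scaled between libraries, and the same as RPKM, scaled by length and library size. Per the submitters' processing notes, the tools were cutadapt 1.2.1, Bowtie2 and Partek, and the builds named were GRCm38 and mm10. The counting method, its strand setting and the annotation are not given in the sources used here. In the deposited RPKM the implied length tracked the whole gene span to within 2% of a common ratio in 92.7% of the genes compared, and exon length in 1.29%. Rows with a biotype word in place of a symbol (30 of 48408 in each table) were left out, and 7 repeated symbols were summed.

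Estimated counts were rounded, filtered with filterByExpr, and scaled by TMM. KO was compared with HET in edgeR 4.0.16 under R 4.3.3 (quasi-likelihood, two-sided), and Benjamini-Hochberg adjustment ran over all 17584 tested genes with a threshold of 0.05. SE was the absolute log2 fold change over the square root of F. Alternatives used other scalings and filters, DESeq2 1.42.0, limma 3.58.1 (voom, or RPKM on a log2 scale with 1 or 0.1 added), a block for the title number that 2 libraries share, and left-out libraries. Leaving out both leukocyte-marked libraries was an alternative chosen after seeing the data. The fit was also run on simulated counts. With the dispersion (spread beyond counting error) following the trend of these data, it called 0% of genes changed 2-fold and 32% of those changed 4-fold. At 8-fold it called 80%, and at 16-fold 92%. With a dispersion of 0.05 it called 56% at 2-fold and 100% at 4-fold. A gene not called may therefore still have changed by 2-fold or 4-fold, and some genes changed 8-fold or 16-fold were missed as well. The simulated spread followed the trend and not that of single genes, such as Tgfb1i1 with an SE of 1.54. Within a label, counts of any 2 libraries gave 155 to 338 times the chi-square that sampling noise gives, so none was counted as a repeat. Total counts of 24954273 to 42470598 put a floor of 3 counts at 0.0683 to 0.119 CPM; floors and intervals cover counting error only, since reads carried no molecular identifiers.

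The 10 genes, the wider lists, the markers and the alternatives were chosen with earlier results of these data known. The named genes were all 10 members, up to 4 genes of smallest unadjusted p in each wider list, and the 5 tested genes, unnamed gene models left out, with a mean of at least 10 CPM whose profile was most like that of Tgfb1i1.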

Additional observations from a re-analysis of the deposited data

How the results depend on the processing

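Under all 17 alternatives none of the 10 genes and none of the wider lists' genes passed an adjusted threshold. Over all tested genes the count was 0 in edgeR and limma, and 240 with DESeq2. Tgfb1i1, Pxn, Ptk2, Ptk2b, Vcl, Git1, Git2 and Bcar1 kept their sign under every alternative, with Vcl between -0.96 and -0.52, Git1 between 0.55 and 0.78, Bcar1 between 0.54 and 1.01 and Tgfb1i1 between -3.97 and -0.92. Ptpn12 turned to 0.091 with library size alone, where the median of all genes moved to 0.15, to 0.027 on log2(RPKM + 1) and to 0.055 on log2(RPKM + 0.1), and ran from -0.17 to 0.086 with 1 library left out. Lpxn ran from -1.21 to 1.40 with 1 library left out and was 0.50 without both leukocyte-marked libraries. It was not tested under the filter of at least 1 CPM in 3 libraries. The cause of these changes of sign was not tested. The titles share only 1 number between labels. With a replicate block for it, the log2 fold change of Tgfb1i1 was -1.74 and that of Vcl -0.75, Git1 0.63 and Bcar1 0.77, no call changed, and 1055 genes were at an unadjusted p under 0.05, against 1511 without it. Deviations from the label means correlated at -0.157 across genes in that pair, and at 0.441 between KO replicate 3 and HET replicate 2. Such deviations cancel out within a label, so a high value with 1 library lowers those with the others. The check therefore cannot decide whether the number pairs libraries, and the main fit used no pairing. Genes at an unadjusted p under 0.05 numbered between 648 (HET replicate 2 left out) and 2281 (KO replicate 3 left out), with 917 when KO replicate 2 was left out. Lpxn had only 5 to 89 counts in a library, yet its libraries differed by more than counting error.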
